A study of Caenorhabditis elegans with 2 samples.

Results

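The proteasome subunit genes of the nematode Caenorhabditis elegans were examined for signal of the ETS-domain transcription factor ETS-5. The members are the 33 protein-coding genes whose names start with pas-, pbs-, rpn- or rpt-, of 19973 protein-coding nuclear genes of the annotation. The rule uses names and no measured value, but the gene family was picked with earlier results of these data known. The 14 pas- and pbs- genes encode the core particle and the 19 rpn- and rpt- genes the regulatory particle. ChIP-seq, the sequencing of chromatin fragments precipitated with an antibody, was made from whole L1 larvae at 6 hours that had hatched without food, in 2 biological replicates of 1 group. The larvae were of strain OP809, whose transgene wgIs809 carries ets-5::TY1 EGFP 3xFLAG on a fosmid together with unc-119(+), in an unc-119 (tm4063) background. The GFP tag was precipitated, although the antibody tag of the samples names ets-5. All larvae carry the transgene, so no untagged group is compared, and a whole-animal sample mixes the chromatin of every cell type. ETS-5 is best known for its role in the BAG sensory neurons.

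The proteasome degrades proteins that carry ubiquitin chains. Its core particle is a barrel of stacked alpha and beta rings, with the proteolytic sites inside the beta rings, and its regulatory particle recognises, unfolds and feeds substrates into the barrel. The regulatory particle consists of a base, with a ring of ATPases, and a lid, which holds the deubiquitinase. In Caenorhabditis elegans the factor SKN-1 induces proteasome genes when proteasome function is impaired.

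Each gene was given the highest signal among the ranked regions whose summit lay within 1000 bp of one of its annotated start sites. Signal here means the value the authors deposited for a region. Its scale is unstated, so it orders regions within a list but not between lists. Genes were therefore placed by percentile, the share of all protein-coding genes with a lower highest signal in the same list, with genes lacking a region at the bottom. The series list was made from both replicates and has 126002 regions, while the replicates' own lists have 108309 (replicate 1) and 92443 (replicate 2) regions. It is thus not independent of them. Read depth is unknown from these files. With 1 group, no test between conditions exists, and the members are described beside all protein-coding genes.

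No proteasome gene had a region in the authors' main list of 250 regions that pass their cutoff on the IDR, the irreproducible discovery rate, which is low where rankings repeat. The share was 0 of 33 members against 0.741% of all protein-coding genes, at which 0.245 members would have one. At that share a count of 0 among 33 members does not set them apart from other genes. The conservative list and both replicates' own passing lists held none either. The members' regions thus lie in the unthresholded part of the ranking, and what follows describes their order there. At a looser global IDR of 0.05 or lower, 3 of 33 members had a region (pas-1, pas-5 and rpn-3), against 5.14% of all genes. At 0.1 or lower 9 members did, adding pbs-1, pbs-2, pbs-5, rpn-1, rpn-13 and rpt-2, against 13.1% of all genes. Both counts rest on few genes and were not tested.

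The ranked lists cover most genes, so a region near a start site is common. In the series list 32 of 33 members had a ranked region within 1000 bp, against 93.3% of all genes. In each replicate list 32 members had one as well, against 91.6% (replicate 1) and 87.4% (replicate 2) of all genes. The exception in every list was pas-4. A total of 113 regions lay in the members' windows, with a median signal of 27.1, and 53105 lay in those of all genes, with a median of 23.8.

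As a group, the proteasome genes stood above the middle of the ranking, by a moderate distance. Their median percentile was 71.0 in the series list, 64.3 in replicate 1 and 65.0 in replicate 2, where all genes have 50. In the series list 23 members stood above the 50th percentile and 10 below it. The top 10% held 6 of the 33 (pas-1, pas-5, pbs-5, pbs-2, rpn-3 and rpn-13), against 10% of all genes by construction. The top 10% held 6 members in replicate 1 and 8 in replicate 2. In both replicates it held 1 of the 33, rpn-13, beside 541 of all 19973 genes. That count is too small to set the members apart.

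**Figure D1:**
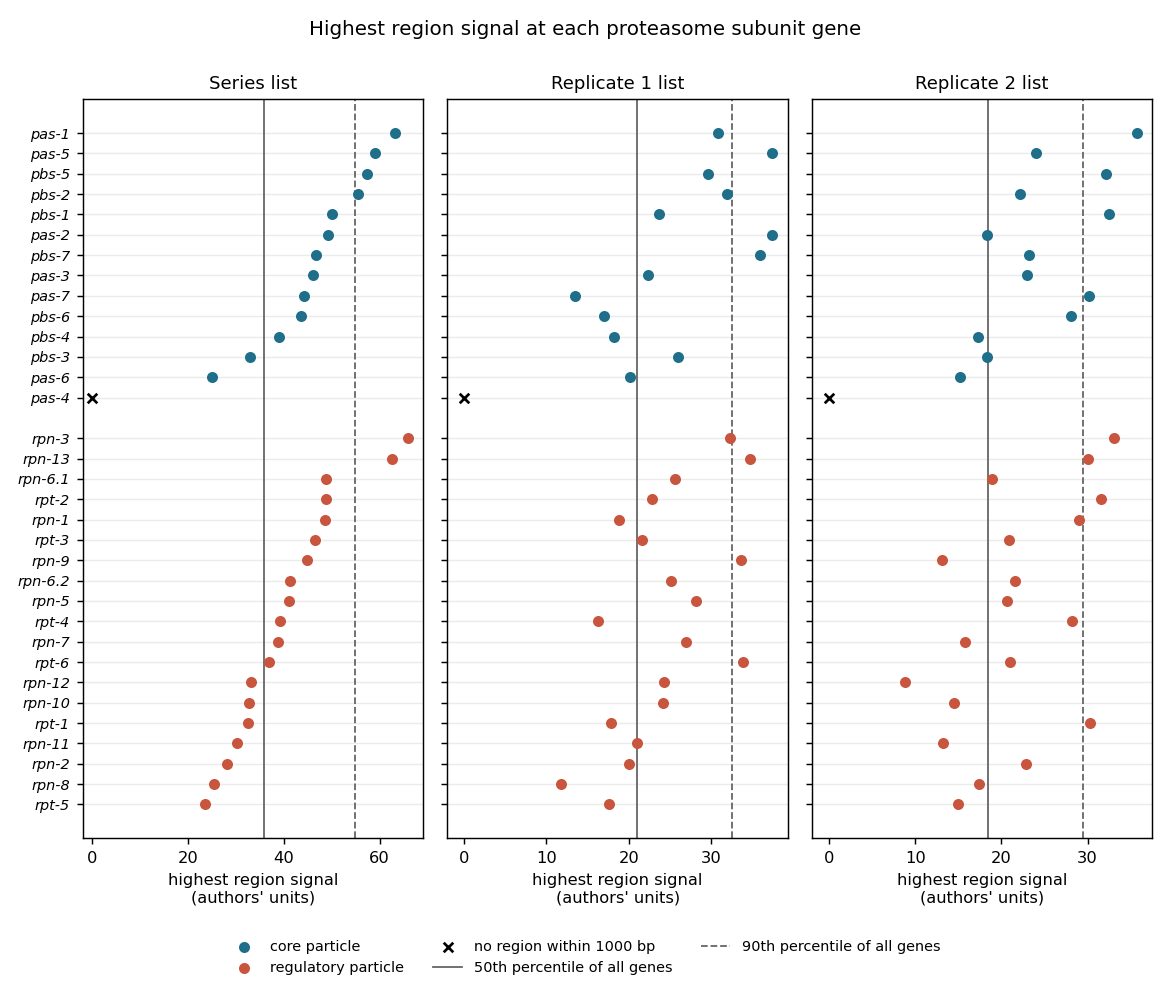
Highest signal of a ranked region within 1000 bp of a start site for each of the 33 proteasome genes (rows), in the series list and in each replicate's list (x axes, authors' units). Each point is 1 gene, crosses mark genes with no region, and vertical lines mark the 50th (solid) and 90th (dashed) percentile of all protein-coding genes. The order in the series list is kept only in part in the replicates, and 6 members lie past the 90th percentile of the series list.

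Sequences around the summits of 8 regions are printed as examples of the DNA at these signals. They are given on the plus strand of ce11, 5′ to 3′, with 75 bases on each side of the summit base. The first 3 are those of the core genes and the next 3 those of the regulatory genes with the highest series signal among the members on chromosomes II to V. This choice leaves out pas-5, pbs-5 and pbs-2, so the set does not represent the strongest regions. The last 2, from pbs-6 and rpn-11, were added after their values were seen because they hold the ETS word. The stretches are chrV:14422948-14423098 (pas-1), chrIV:1709150-1709300 (pbs-1), chrV:10770835-10770985 (pas-2), chrIII:8447532-8447682 (rpn-3), chrIII:6341641-6341791 (rpn-13), chrIII:6960007-6960157 (rpn-6.1), chrIII:8243204-8243354 (pbs-6) and chrII:4043834-4043984 (rpn-11). Capitals mark the ETS core word CCGGAA, the SKN-1 core words GTCAT and, in its second form, ATCAT, as well as the word CGCGCA, each on either strand. A sequence without capitals holds none of them.
pas-1: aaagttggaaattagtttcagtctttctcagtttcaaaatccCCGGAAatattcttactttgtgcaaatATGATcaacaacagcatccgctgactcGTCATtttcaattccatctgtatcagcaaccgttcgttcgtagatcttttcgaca
pbs-1: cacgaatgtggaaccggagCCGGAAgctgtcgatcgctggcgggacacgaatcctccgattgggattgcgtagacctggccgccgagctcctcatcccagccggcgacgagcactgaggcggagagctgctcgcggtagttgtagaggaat
pas-2: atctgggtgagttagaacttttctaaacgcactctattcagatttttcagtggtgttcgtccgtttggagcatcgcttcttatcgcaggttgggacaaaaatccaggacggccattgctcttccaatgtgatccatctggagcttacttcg
rpn-3: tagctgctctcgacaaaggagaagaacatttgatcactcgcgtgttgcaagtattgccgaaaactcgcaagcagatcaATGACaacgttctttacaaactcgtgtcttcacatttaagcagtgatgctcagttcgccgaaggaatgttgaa
rpn-13: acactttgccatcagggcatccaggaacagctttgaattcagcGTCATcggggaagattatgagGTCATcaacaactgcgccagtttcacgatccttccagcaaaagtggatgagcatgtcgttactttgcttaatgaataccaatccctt
rpn-6.1: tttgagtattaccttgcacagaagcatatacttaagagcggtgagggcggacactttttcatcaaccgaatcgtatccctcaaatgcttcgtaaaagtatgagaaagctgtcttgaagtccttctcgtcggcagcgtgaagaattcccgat
pbs-6: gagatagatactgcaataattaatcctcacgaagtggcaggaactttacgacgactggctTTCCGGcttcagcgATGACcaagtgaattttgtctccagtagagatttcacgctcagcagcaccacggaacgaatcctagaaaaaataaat
rpn-11: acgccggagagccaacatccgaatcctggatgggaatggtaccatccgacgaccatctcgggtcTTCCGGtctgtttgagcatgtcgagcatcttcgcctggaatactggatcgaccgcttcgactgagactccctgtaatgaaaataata

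All but 1 of these 8 sequences lie in the body of the member they are assigned to. The exception is that of pas-1, whose summit lies in a coding exon of rpoa-12. The GC content of the printed windows ran from 37.7% at pas-1 to 62.9% at pbs-1.

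The alpha ring, whose pas- genes encode the gate and the docking surface of the core, held both the strongest and the weakest core genes. The highest signal of pas-1 was 30.7 in replicate 1, 35.7 in replicate 2 and 63.2 in the series list (percentiles 86.4, 97.2 and 95.8). Its region (chrV:14422868-14423177) has its summit 405 bp upstream of the pas-1 start site, at rank 1491 and a global IDR of 0.05. The summit is 281 bp from the start of the neighbouring rpoa-12, named for RNA polymerase I, and thus nearer to that gene than to pas-1. For pas-5 the values were 37.4 in replicate 1, 24.0 in replicate 2 and 58.9 in the series list, with the series region (chrI:10565454-10565763) 741 bp upstream in intergenic sequence. That region had the lowest global IDR of the core genes, 0.0429. In replicate 2 the strongest region of pas-5 lay elsewhere, 514 bp downstream of the start site, and the one at the series position had a signal of 20.6.

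The other alpha genes stood lower in the series list, but not in each replicate. In replicate 2 pas-7 (30.1) stood above pas-5. The signal of pas-2 was 37.4 in replicate 1, 18.4 in replicate 2 and 49.2 in the series list (chrV:10770755-10771064, 542 bp downstream). Replicate 1 thus placed it at percentile 96.1, above pas-1, and replicate 2 at 49.9. In the series list pas-3 had 46.1, pas-7 had 44.2 and pas-6 had 24.9, the lowest of the core genes with a region (chrV:5584915-5585224, 63 bp from the start of CD4.11). In the replicates pas-6 had 20.1 (replicate 1) and 15.2 (replicate 2). The replicate 2 value came from a region 932 bp downstream, and the one at the series position had 12.2. No ranked region lay within 1000 bp of the start of pas-4 in any list. The nearest summit was 4691 bp away in the series list, 5492 bp in replicate 1 and 3393 bp in replicate 2. The median percentile of the 7 alpha genes was 76.6 in the series list, 56.5 in replicate 1 and 70.8 in replicate 2.

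Among the beta genes, those of the catalytic subunits had the highest signals in the series list, but not in the replicates. Replicate 1 placed pbs-7 (35.8) first, and in replicate 2 pbs-6 (28.0) and pbs-7 (23.2) stood above pbs-2. The gene for the chymotrypsin-like subunit, pbs-5, had a signal of 29.6 in replicate 1, 32.1 in replicate 2 and 57.4 in the series list (percentiles 83.7, 94.2 and 92.4). Its region (chrI:14720114-14720423) has the summit 208 bp downstream of the start in a coding exon of pbs-5, and a second region in the window reached 52.4. For pbs-2, the trypsin-like subunit, the values were 31.9 (replicate 1), 22.2 (replicate 2) and 55.4 (series). This region (chrI:12967178-12967487) lies 947 bp downstream, in an untranslated exon of pbs-2, and 538 bp from the start of the alpha-tubulin gene tba-2. The caspase-like subunit gene pbs-1 had 23.7 in replicate 1, 32.5 in replicate 2 and 50.1 in the series list (chrIV:1709070-1709379, 520 bp downstream). In replicate 2 its strongest region was 957 bp upstream instead.

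The genes of beta subunits without a proteolytic site followed in the series list. There pbs-7 had 46.7, pbs-6 had 43.6, pbs-4 had 38.9 and pbs-3 had 32.9, the last at percentile 40.9 and alone among the beta genes below the middle. The strongest region of pbs-7 had a signal of 35.8 in replicate 1, and no region of replicate 2 overlapped it. Likewise no region of replicate 2 overlapped that of pbs-3, and none of replicate 1 that of pbs-4. The median percentile of the 7 beta genes was 78.0 in the series list, 72.1 in replicate 1 and 71.9 in replicate 2.

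In the base of the regulatory particle the 6 ATPase genes, which encode the ring that unfolds substrates, ran from 23.6 to 48.7 in the series list. The highest was rpt-2 with 22.7 in replicate 1, 31.5 in replicate 2 and 48.7 in the series list (chrV:6016792-6017101, 722 bp downstream). In replicate 2 the strongest region of rpt-2 lay 204 bp downstream, and the one at the series position had 28.3. In the series list rpt-3 had 46.4, rpt-4 had 39.2, rpt-6 had 36.8, rpt-1 had 32.5 and rpt-5 had 23.6. The region of rpt-5 (chrI:5743002-5743311, 414 bp downstream) is the lowest of all regulatory genes, with 17.6 in replicate 1 and 15 in replicate 2. The region of rpt-3 stood at percentile 77.3 by signal and had a global IDR of 0.657. None of the 6 reached the top 10% of the series list, while rpt-6 did in replicate 1 (33.8) and rpt-2 and rpt-1 (30.3) in replicate 2. Their median percentile was 56.2 in the series list, 44.2 in replicate 1 and 74.9 in replicate 2.

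Of the other base genes, rpn-13, which encodes a ubiquitin receptor, was the only member in the top 10% of both replicates. Its signal was 34.6 in replicate 1, 30 in replicate 2 and 62.7 in the series list (chrIII:6341561-6341870, 209 bp downstream in a coding exon). The strongest region of replicate 1 lay 993 bp upstream, and the one at the series position had 28.9 there. Only 2 regions lie in its window and they reach nearly the same series signal, the second having 59.6. The scaffold gene rpn-1 had 18.8 (replicate 1), 29.0 (replicate 2) and 48.7 (series), from a region 991 bp upstream in an intron of ribo-1 (chrIV:6910749-6911058). Within 500 bp the highest series signal of rpn-1 was 4.02. The related scaffold gene rpn-2 had 28.0 in the series list, and no region of replicate 1 overlapped its region.

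The lid genes spanned nearly the whole range. The highest signal of any member in the series list was that of rpn-3, a structural subunit of the lid. It had 32.3 in replicate 1, 33.1 in replicate 2 and 65.8 in the series list (percentiles 89.6, 95.1 and 97.0). Its region (chrIII:8447452-8447761) has the summit 254 bp downstream of the start in a coding exon, ranks 1068 and has the lowest global IDR of all members, 0.0264. The strongest region of each replicate lay at the same place, with summits 249 bp (replicate 1) and 231 bp (replicate 2) downstream. The signal of rpn-6.1, a lid subunit whose raised level increases proteasome activity in Caenorhabditis elegans, was 25.5 in replicate 1, 18.9 in replicate 2 and 48.8 in the series list (chrIII:6959927-6960236, 858 bp downstream). In replicate 2 the strongest region of rpn-6.1 lay 654 bp upstream, and the one at the series position had 15.4. The paralogue of rpn-6.1, rpn-6.2, had 41.3 in the series list.

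The remaining lid genes had series signals of 44.8 or lower. For rpn-9 the value was 44.8, with 33.5 in replicate 1 and 13.1 in replicate 2. No region of replicate 2 overlapped the series region of rpn-9, 938 bp downstream, and the 13.1 came from a region 585 bp downstream. Structural subunits rpn-5, rpn-7 and rpn-12 had 41.0, 38.7 and 33.0. The deubiquitinase gene rpn-11 had 30.2 and its partner rpn-8 had 25.5, at percentiles 33.5 and 22.0 of the series list. In replicate 1 rpn-11 stood at percentile 49.9 and rpn-8 at 15.8, and in replicate 2 at 26.6 and 44.7. No region of replicate 1 overlapped the series region of rpn-11. The ubiquitin receptor gene rpn-10, counted with neither base nor lid, had 32.7. The median percentile of the 9 lid genes was 64.5 in the series list, 70.4 in replicate 1 and 44.7 in replicate 2. The order of lid and ATPase genes was therefore opposite in the replicates.

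The comparison of the particles gave the core genes the higher median with windows of 1000 bp, but the direction depended on the window. The median percentile was 77.3 for core and 59.7 for regulatory genes in the series list, a difference of 17.6 points. It was 67.2 for core and 64.3 for regulatory genes in replicate 1 (2.94 points), and 71.4 and 61.9 in replicate 2 (9.42 points). The median signal in the series list was 46.7 for core and 39.2 for regulatory genes, and the ranges overlapped, from 24.9 to 63.2 and from 23.6 to 65.8. The top 10% held 4 of 14 core and 2 of 19 regulatory genes. Counting only regions within 500 bp of a start site turned the order round, with a median percentile of 37.3 for core and 62.5 for regulatory genes (−25.2 points). The same happened in both replicates (−28.6 and −3.44 points). With each region given only to the gene of the nearest start site, the difference was −2.76 points in the series list, −10.2 in replicate 1 and −11.5 in replicate 2. These replicate values of both changes were computed after the series values had been seen. A difference between the particles is thus not shown by these lists.

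**Figure D2:**
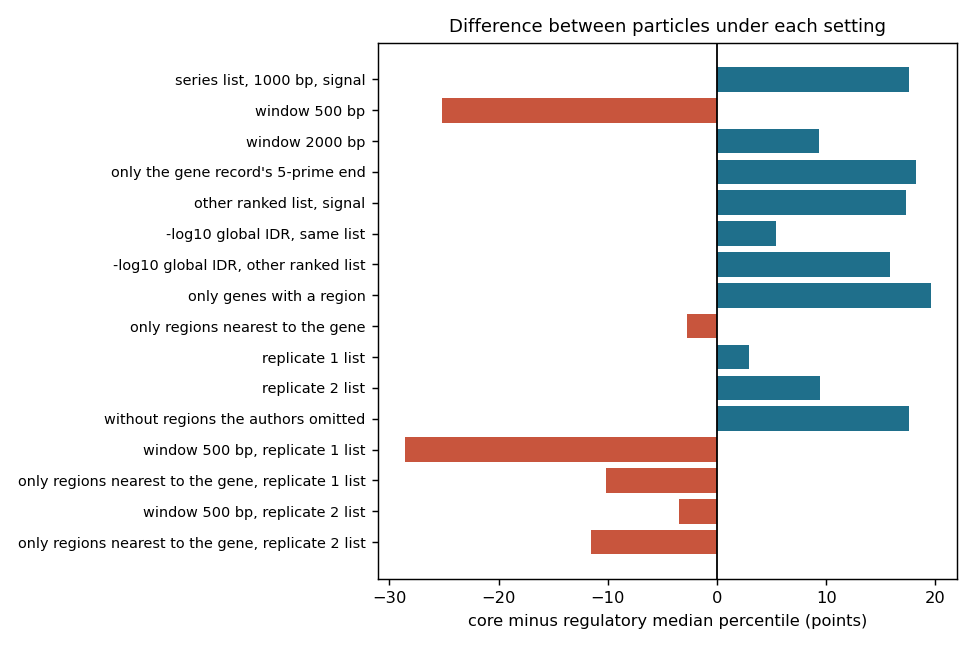
Core minus regulatory median percentile (x axis, points) under each setting (rows). Bars to the right mean a higher median for core genes and bars to the left a higher median for regulatory genes. The value is 17.6 points as first computed and −25.2 points with a window of 500 bp.

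Within windows of 1000 bp, the strongest regions of core genes lay farther from the start sites than those of regulatory genes. Of 13 core genes with a region, 11 had its summit more than 500 bp from the start site, as had 10 of 19 regulatory genes. The share with the summit within 500 bp was 15.4% for core and 47.4% for regulatory genes, against 53% for all genes. The median distance was 727 bp for core and 535 bp for regulatory genes, against 471 bp for all genes. The core genes are short, with a median length of 1018 bp against 1953 bp for regulatory and 2027 bp for all genes, so a window of 1000 bp reaches across most of a core gene. A start site of another gene was nearer to the summit at 6 core and 4 regulatory genes. The gene's own start was the nearest for 53.8% of core and 78.9% of regulatory genes with a region, against 87.2% of all genes. The part of summit place or gene length in the difference was not tested.

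Within 500 bp, 27 of 33 members had a ranked region, against 82.9% of all genes. This held for 10 of 14 core and 17 of 19 regulatory genes. The members without one were pas-2, pas-4, pbs-1, pbs-4, rpn-8 and rpt-6. The median percentile of all 33 was 56.2 in the series list, 53.2 in replicate 1 and 56.9 in replicate 2, close to the 50 of all genes. Close to the start sites the top 10% held 4 members in the series list (pas-1, pbs-5, rpn-13 and rpn-3). Of these, pas-1, pbs-5 and rpn-3 also stood there in each replicate. The share of all genes that did so was not computed, and the series list was made from the same replicates. These names therefore only describe the members.

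The summits lay mostly downstream of the start sites and inside genes. Of the 32 strongest regions, 23 (71.9%) had the summit downstream of the nearest start site of the member, against 56.2% for all genes. The summit fell in the member's own body in 24 (75%), against 56.6% for all genes. Coding exons held 23 summits, introns 3, untranslated exons 3 and intergenic sequence 3 (pas-5, pbs-4 and pas-6). Another protein-coding gene held the summit at 5 members: pas-1 (rpoa-12), rpn-1 (ribo-1), rpn-7 (F49C12.9), rpn-8 (mrps-6) and rpt-4 (rpoa-49). No share over all genes is set beside the counts by class or by other gene, so they only describe the members. The GC share of the bases up to 100 bp from the summit averaged 43.2% ± 6.04 (SD, 32 regions) for members and 39.5% ± 6.95 (SD, 18633 genes) for all genes.

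**Figure D3:**
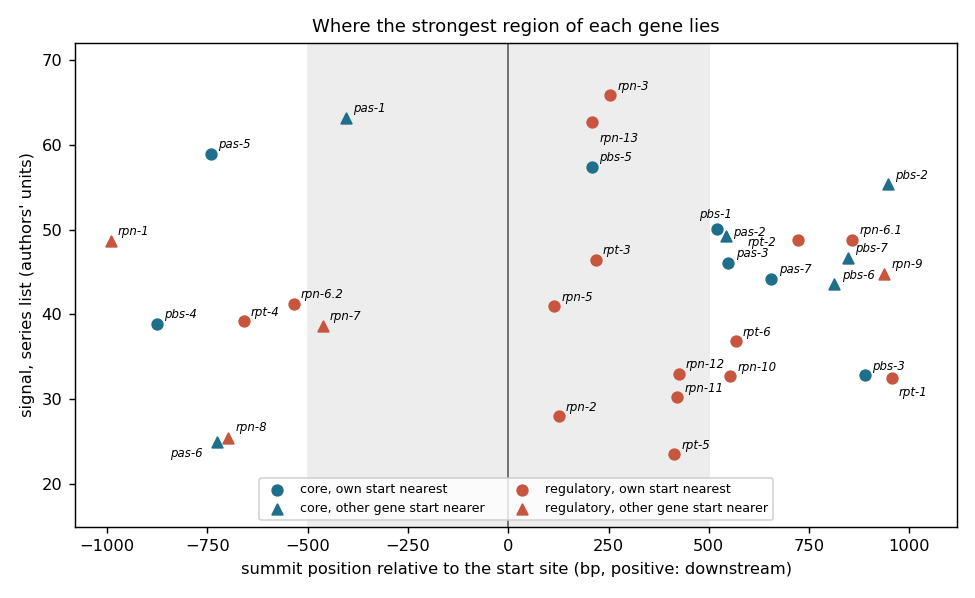
Series signal (y axis, authors' units) against the summit's position relative to the start site (x axis, bp, positive downstream) for the strongest region of each of the 32 proteasome genes that have one. Colours give the particle, triangles mark regions with another gene's start site nearer, and the shaded band covers 500 bp on each side. Most core genes lie outside the band, while rpn-3, rpn-13, pbs-5 and pas-1 lie inside it.

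Proteasome genes also sit close to other genes. Another protein-coding start site lay within 1000 bp of 25 of 33 members (75.8%), against 25.5% of all genes, so the signal in those 25 windows cannot be given to 1 gene alone. The share was 73.1% for ribosomal protein genes and 75% for CCT genes. The strongest region was at the same time that of another gene for 15 of 32 members (46.9%), against 19.1% of all genes. These shared regions include rpn-3 with the chaperone gene hsp-110, pbs-2 with tba-2, rpn-5 with the cohesin gene scc-1 and rpn-1 with ribo-1. No pair of members shared a region, since the closest members, pbs-7 and pas-4, are 30917 bp apart. The members are spread over chromosomes I (10), II (7), III (8), IV (3) and V (5), with none on X.

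The replicates placed the members only loosely alike. Across the 33 members the percentiles in replicate 1 and replicate 2 had a Spearman correlation of 0.14 and a Pearson correlation of 0.17, where all 19973 genes gave 0.36 for both. These are descriptions across genes measured in the same libraries. The median gap between the replicates was 22.8 percentile points for members and 20.8 for all genes. The largest gap among the members was 71.0 points, at pas-7, which had 13.5 in replicate 1 and 30.1 in replicate 2. Both replicates placed 15 of 33 members above the 50th percentile (45.5%), against 30.9% of all genes. Neither replicate placed 6 of the 33 members above it, beside 6167 of all 19973 genes.

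**Figure D4:**
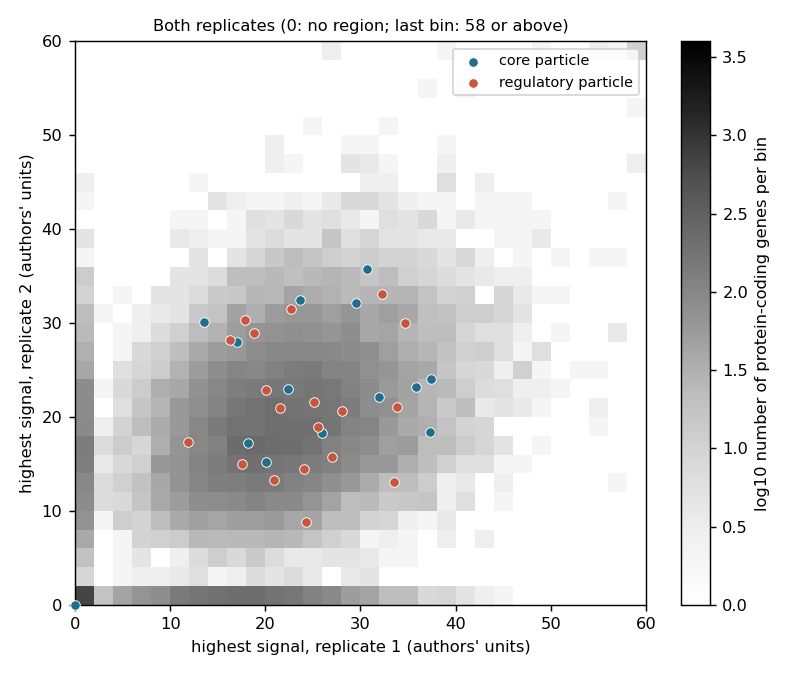
Highest signal of each proteasome gene in replicate 1 (x axis) and replicate 2 (y axis), in the authors' units, over the number of all protein-coding genes per bin (grey, log10 scale). Points at 0 have no region. The members lie inside the cloud of all genes, and the largest of their signals is 37.4 in replicate 1 and 35.7 in replicate 2.

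The strongest series region was overlapped by at least 1 bp in the ranked lists of both replicates for 24 of 32 members, 75%, against 71.8% of all genes with a region. In 4 members only replicate 1 and in 4 only replicate 2 had an overlapping region. All 6 alpha genes with a region recurred in both, as did 4 of 7 beta genes, 5 of 6 ATPase genes and 6 of 9 lid genes. The strongest region of both replicates was the one at the series position in 14 members, among them pas-1, pbs-5 and rpn-3. No share over all genes is set beside this count, so it only describes the members.

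Up to 100 bp from the summit, 7 of 32 strongest regions held the ETS core word CCGGAA, against 9.26% for all genes. It was present at 5 of 13 core genes (pas-1, pas-3, pbs-1, pbs-5 and pbs-6) and at 2 of 19 regulatory genes (rpn-10 and rpn-11). The share of 21.9% rests on 7 genes and was not tested. With 50 bp on each side it was 6 of 32 against 5.15%, and with 150 bp it was 7 of 32 against 12.4%. The windows of pas-1, pbs-1, pbs-6 and rpn-11 printed above show the word, with the summit in the body of a gene in each case. Among the 4 members that led close to the start sites, pas-1 and pbs-5 had the word while rpn-3 and rpn-13 did not. Its shorter form GGAA was found in 28 of 32, against 88.3%.

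The core of SKN-1 sites was searched in both of its forms. The form GTCAT was present in 13 of 32 regions, against 27.1% for all genes, with 2 copies in the printed window of rpn-13. The other form, ATCAT, was present in 10, against 40.7%. The element GGTGGCAAA, which the factor Rpn4 reads at proteasome genes of Saccharomyces cerevisiae, was found once, at pbs-4, against 0.199%. CGCGCA, a word taken from an earlier result on these data, was found once, at rpt-4, against 3.21%. Words were searched on both strands, and every CCGGAA match is also a GGAA match. A match describes the letters in the window and not a bound site.

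Genes that work with the proteasome were taken from a list of 19 names, chosen with earlier results of these data known. Of the 19, 2 (10.5%) had a passing region, against 0.741% of all genes. This contrast depends on the choice of list and was not tested. Among ribosomal protein genes 8 of 78 (10.3%) had one. Of the partners, cdc-48.1, whose product pulls ubiquitylated proteins out of complexes, and aip-1, which encodes a proteasome-associated stress protein, had a region in the main list. The signal of cdc-48.1 was 64.5 in replicate 1, 78.9 in replicate 2 and 145 in the series list, and that of aip-1 was 57.9, 42.3 and 93.6 in the same order. Both exceed every subunit gene in each list. Next came skn-1 with 37.9 in replicate 1, 26 in replicate 2 and 62.9 in the series list. The median percentile of the 19 partners in the series list was 68.6, close to the 71.0 of the subunit genes. In replicate 1 it was 54.8, against 64.3 for the subunit genes, and in replicate 2 it was 66.8, against 65.0.

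Set beside other complexes, the proteasome stood below the cytosolic ribosome. The median percentile in the series list was 71.0 for the 33 proteasome genes and 85.0 for 78 ribosomal protein genes, of which 30 stood in the top 10%. It was 66.9 for 8 genes of the chaperonin CCT, which folds actin and tubulin, and 49.6 for 6 genes of the COP9 signalosome, a complex related to the proteasome lid. Within 500 bp the ribosomal protein genes had a median percentile of 86.5, while that of the proteasome genes was 56.2. The replicates gave 64.3 and 65.0 for the proteasome, 80.2 and 88.5 for the ribosome, 36.3 and 90.8 for CCT, and 17.4 and 70.2 for the signalosome, replicate 1 first. The highest ribosomal signals in the series list were those of rpl-3 (252), rpl-20 (176) and rpl-15 (121). These complexes were not tested against each other.

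**Figure D5:**
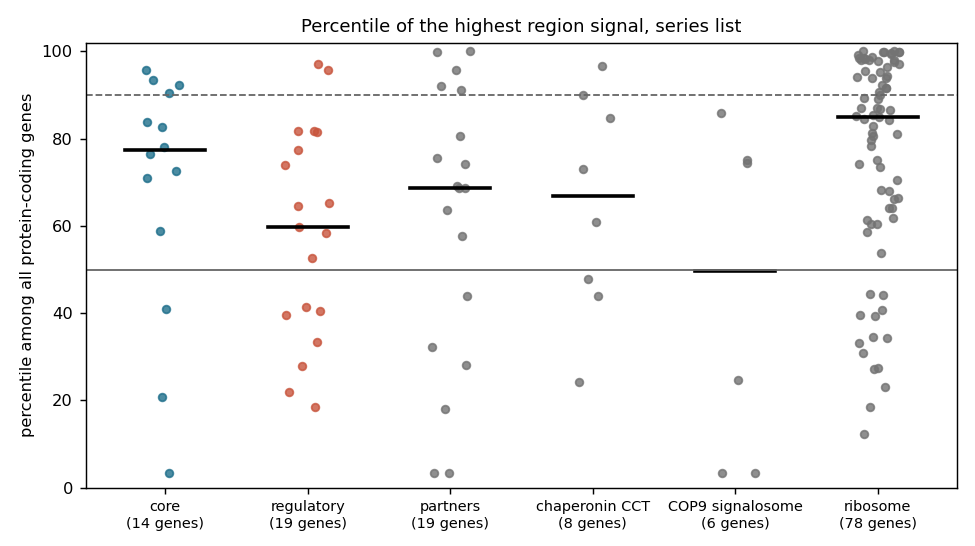
Percentile of the highest signal within 1000 bp in the series list (y axis) for each gene of the core particle, the regulatory particle, the listed partners and 3 other complexes (x axis, number of genes in brackets). Points are genes, black bars are medians, and lines mark the 50th (solid) and 90th (dashed) percentile. Core genes have a median of 77.3, regulatory genes 59.7 and ribosomal protein genes 85.0.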

How the data were processed

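ChIP-seq of the GFP-tagged ETS-5 protein gave region lists for 2 replicates of 1 group of whole larvae. Coordinates follow ce11, per the labels. The sources used here name no aligner or caller. The signal was deposited by the authors, 1 value a region. The deposited score followed 125 × −log2 of the global IDR, capped at 1000, to within 1 unit in 125994 of 126002 series regions. The deposited ranked lists also give the −log10 of the global IDR. The series lists were made from the alignments of both replicates, per the text deposited with the samples.

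Start sites were those of every transcript of the Ensembl release 115 annotation, whose WBcel235 coordinates are those of ce11. Sequences were read from the RefSeq genome of the same assembly. Coordinates are 1-based. Genes with tied values share the mean of their percentiles. The computation (Python 3.11.15, pandas 2.3.3) was tested on simulated data. Full values are given for the 5 strongest members of each particle, the weakest of each and members without a region. Alternatives cover windows, start sites, lists, measures and replicates. The members and lists were chosen with earlier results of these data known. No test was made, since 2 replicates of 1 group allow none between conditions. Depth is unknown, so no interval is given.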

Additional observations from a re-analysis of the deposited data

How the results depend on the processing

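The difference between core and regulatory medians, 17.6 points, was the result that turned. It was −25.2 points with a window of 500 bp and −2.76 with regions given only to the nearest gene. In replicate 1 these settings gave −28.6 and −10.2 points, and in replicate 2 −3.44 and −11.5, both chosen after seeing the data. It was 9.36 with 2000 bp, 5.37 and 15.8 with the global IDR in the 2 ranked lists, and 2.94 to 9.42 when either replicate was left out. It stayed near its first value with the 5-prime end of the gene record only (18.2). The same held for the signal of the other ranked list (17.3) and for only genes with a region (19.6). The cause was not tested.

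The median percentile of all members, 71.0, moved to 56.2 (500 bp), 63.1 (2000 bp), 68.8 (the 5-prime end of the gene record only), 64.0 and 63.9 (global IDR in the 2 ranked lists), 69.8 (only genes with a region) and 57.7 (nearest gene), with 64.3 to 65.0 when a replicate was left out. For core genes, 77.3 moved to 37.3 (500 bp), 67.6 (2000 bp), 69.3 and 72.2 (global IDR) and 54.9 (nearest gene), with 67.2 to 71.4 when a replicate was left out. For regulatory genes, 59.7 moved to 62.5 (500 bp), 62.0 (5-prime end), 64.0 and 56.4 (global IDR), 56.8 (only genes with a region) and 57.7 (nearest gene), with 61.9 to 64.3 when a replicate was left out. All stayed above 50 except the core median at 500 bp. The top 10% of genes held 3 members with 2000 bp in place of 6. The 0 members with a passing region became 3 at a global IDR of 0.05 and 9 at 0.1, and stayed 0 in the conservative list, in each replicate and with 500 bp or 2000 bp. Leaving out the 50 ranked regions that reach the passing score but are absent from the passing list, a choice made after seeing the data, changed no median. ATCAT counts were 5 of 32 with 50 bp, against 22.9% of all genes, and 17 with 150 bp, against 54.4%. They stand in place of 10 with 100 bp, against 40.7%, so the share over all genes rose with the width as well.

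No paired analysis was possible because the series holds 1 group. The depth is unknown, and the signal scale is not stated, which limits comparisons to ranks within a list.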
